A study of Drosophila melanogaster with 21 samples.

Results

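The predicted genes of Drosophila melanogaster CG4000, CG3713, CG8736, CG11413, CG14153, CG33639, CG9394 and CG31345 are described here across ages and genotypes of the male fly brain. They were chosen because their counts in miR-34 mutant brains were much lower at 20d than at 3d, among genes that carry only a CG symbol. These 8 genes stand against 17612 genes in the count table, of which 6091 have a symbol of CG and digits. The choice therefore used the 3d and 20d mutant libraries, and every value that involves those libraries is given below as a description without a test.

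PolyA-selected RNA was sequenced from dissected male brains in a pair of separately run experiments, with 20 brains in each replicate and 3 biological replicates in each group. Set 1 held 4 groups, namely 3d and 20d brains of control flies (labelled 5905, the w1118 stock) and 3d and 20d brains of {delta}miR-34 flies, in which miR-34 is deleted in the whole animal on the w1118 background. Set 2 held 3 groups of the same control genotype at 3d, 20d and 50d. No group received a treatment, all animals were male and share the w1118 background, and each mutant or control group comes from a single stock.

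A CG symbol is the number that a gene receives when the fly genome annotation predicts it, and a gene keeps it as its only name until a mutant or a function is described. Of the 8 genes, 3 can be placed in a protein family. CG33639 encodes a rhodopsin-like G protein-coupled receptor of the peptide-receptor type whose ligand is not known, CG31345 encodes a calcium-binding protein with EF-hand motifs, and CG9394 encodes a member of the glycerophosphodiester phosphodiesterase family, enzymes that split the head group from deacylated phospholipids. CG4000, CG3713, CG8736, CG11413 and CG14153 have no role assigned here and are described only by position, size and level. miR-34 is a conserved microRNA that lowers the output of target messenger RNAs. In flies its loss has been linked to early signs of brain ageing.

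The 21 libraries held between 17932132 and 23109013 counts in set 1 and between 30890607 and 43713430 in set 2. Levels are given in CPM, the count of a gene scaled to library size with TMM factors computed within each set. lncRNA:CR43459, the host transcript of mir-34, had 182 to 192 counts in 3d control libraries and 17989 to 23664 in 3d mutant libraries, and 349 to 435 and 15243 to 20781 at 20d, so the libraries separate by their genotype labels. All 7 neuronal markers examined were expressed in every group. Photoreceptor markers were also abundant, with a summed level of 23808 to 73618 CPM per library.

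In control brains, whose libraries the rule above did not use, 7 of the 8 genes fell from 3d to 20d in set 1 and all 8 fell in set 2. The genes were chosen with earlier results of these data known, so the controls are not shown to be independent of the choice. CG3713 is in both counts, although only 3d groups carried it past the filter on low counts. A gene was called when its Benjamini-Hochberg adjusted p over all genes tested was under 0.05 in edgeR's quasi-likelihood test. Of all 9961 genes tested in set 1, 13.3% were called lower at 20d, and 19.9% of 10525 were called lower in set 2. None of the 8 rose in either set, where 11.3% and 19.3% of genes were called higher. Between 20d and 50d only CG9394 and CG31345 were called lower, against a background of 4.21%, and from 3d to 50d all 8 were, against 24.9%. CG3713 had a larger log2 fold change from 20d to 50d (-1.28), but with an SE of 0.515 it was not called. The median log2 fold change of the 8 genes was -1.10 in set 1 and -1.54 in set 2 for 20d against 3d, beside 0.00 and 0.01 for all genes tested. It was -0.13 from 20d to 50d, where all genes had a median of 0.00, and -1.81 from 3d to 50d, where all genes had a median of 0.02.

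The 8 genes spanned a wide range of levels in young control brains. In RPKM, which divides CPM by exon length and so allows genes to be compared, the mean level in 3d controls of set 1 was 2.04 for CG3713, 2.52 for CG8736 and 3.13 for CG4000. CG11413 and CG14153 followed at 9.47 and 9.82 RPKM, CG33639 at 13.4, CG31345 at 77.7 and CG9394 at 232. The order of CG11413 and CG14153 does not exceed the spread between libraries. By this measure the 5 genes without an assigned role were the 5 with the lowest levels per length in these brains. The place of CG11413 is uncertain, since 448 of its 602 exonic bases are shared with CG4622 and the strand setting of the counting is not known. All 8 passed the filter on low counts in both sets. In set 2 CG3713 passed it only through its 3d group, so a gene that did not differ would not have been tested there. In set 1 CG3713 passed only through the 3d groups, of both genotypes, and through no 20d group. Leaving it out, all remaining genes but CG9394 fell from 3d to 20d in set 1. In set 2, 7 of 7 remaining genes fell from 3d to 20d and also from 3d to 50d.

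**Figure D1:**
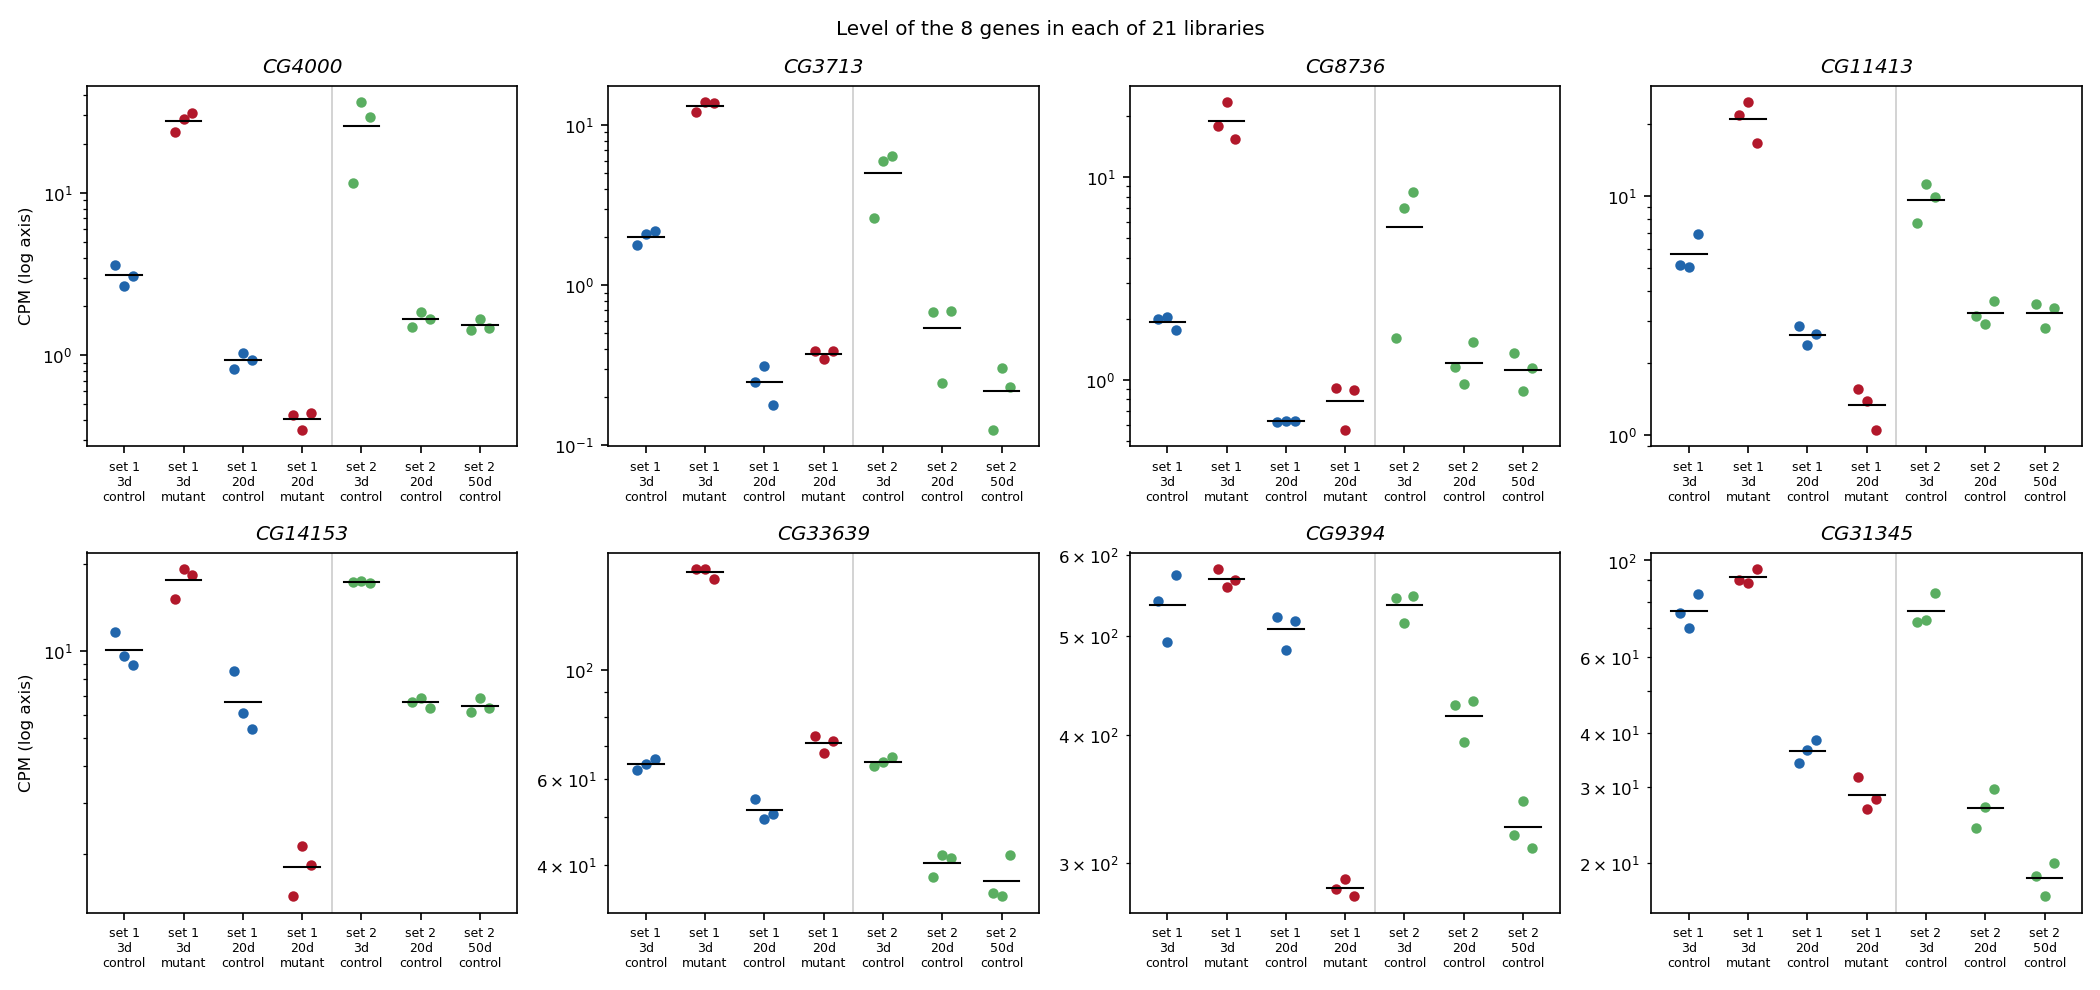
Level of each of the 8 genes in CPM (log axis, scaled separately in each panel) in the 21 libraries, grouped by set, age and genotype. Points are libraries and bars are group means of 3 libraries. CG4000, CG3713, CG8736 and CG11413 are highest in the 3d mutants of set 1 or, for CG4000, also in 3d controls of set 2, while CG9394 is highest in the 3d groups of both genotypes and lowest in 20d mutants.

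CG4000 lies on chromosome 3R at 20676224-20677351 (BDGP6.54, minus strand), has 3 exons and encodes a protein of 263 amino acids. In set 1 its level was 3.61, 2.68 and 3.08 CPM in 3d controls and 0.827, 1.03 and 0.942 CPM in 20d controls. The ages did not overlap, and the fall was 3.33-fold, a log2 fold change of -1.74 (SE 0.173, edgeR adjusted p = 2.0e-05). In 3d mutants it had 23.8, 28.5 and 31.0 CPM, and in 20d mutants 0.432, 0.348 and 0.443 CPM. Every 3d mutant library was above every other library of the set and every 20d mutant library was below it, so the gene had both its highest and its lowest level in mutants. These lowest values are 8 to 10 counts per library.

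In set 2, CG4000 had 11.5, 36.0 and 29.4 CPM at 3d, 1.49, 1.84 and 1.68 CPM at 20d and 1.44, 1.68 and 1.47 CPM at 50d. The 3d libraries were far above the older ones, and 20d and 50d overlapped. The fall from 3d to 20d was 15.3-fold, a log2 fold change of -3.94 (SE 0.438, edgeR adjusted p = 4.2e-04), and the difference between 20d and 50d was -0.12 (SE 0.478, adjusted p = 0.922). By this measure CG4000 was at percentile 0.0190 of all genes tested in set 2, close to the largest fall of any gene. Replicate 1 of the 3d group was below 0.5 times both other 3d libraries, and without it the log2 fold change was -4.27 (edgeR adjusted p = 5.1e-09). An antisense transcript, asRNA:CR45024, shares 210 exonic bases with CG4000 but held no more than 11 counts in any library, and the strand setting of the counting is not given in the sources used here.

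CG3713 is a gene of 1 exon on chromosome X at 846171-847157 (BDGP6.54, minus strand), inside the span of CG43867 but without shared exonic bases, and encodes 83 amino acids. In set 1 it had 1.78, 2.08 and 2.18 CPM in 3d controls and 0.248, 0.313 and 0.179 CPM in 20d controls, which is 4 to 7 counts per library at 20d. It fell 8.0-fold, a log2 fold change of -3.0 (SE 0.222, edgeR adjusted p = 4.1e-06), the largest fall of the 8 genes in these controls. Only 3d groups carried CG3713 past the filter on low counts, so this p-value is not independent support for the fall. In 3d mutants it had 12.1, 13.9 and 13.8 CPM and in 20d mutants 0.388, 0.348 and 0.387 CPM. The 3d mutants stood above all other libraries of the set, and the 20d mutants stood slightly above the 20d controls.

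In set 2, CG3713 had 2.64, 5.97 and 6.42 CPM at 3d, 0.684, 0.245 and 0.692 CPM at 20d and 0.125, 0.302 and 0.232 CPM at 50d. All 3d libraries were above all older ones, while 20d and 50d overlapped through replicate 2 of the 20d group, which was below 0.5 times both other 20d libraries. The log2 fold change from 3d to 20d was -3.19 (SE 0.440, edgeR adjusted p = 2.1e-04) and that from 3d to 50d was -4.47 (SE 0.488, adjusted p = 1.8e-05), a 22.1-fold fall. In set 2 the 3d group alone carried CG3713 past the filter, so these p-values are not independent support either. The value from 20d to 50d was -1.28 (SE 0.515), which did not pass the test (edgeR adjusted p = 0.157). Without replicate 1 of the 3d group, which was again low, the change from 3d to 20d was -3.48 (edgeR adjusted p = 2.8e-05).

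CG8736 lies on chromosome 2R at 8594031-8595001 (BDGP6.54, minus strand), has 2 exons and encodes 163 amino acids. Set 1 held 1.99, 2.03 and 1.75 CPM in 3d controls and 0.620, 0.627 and 0.628 CPM in 20d controls. It fell 3.06-fold with no overlap, a log2 fold change of -1.61 (SE 0.231, edgeR adjusted p = 2.8e-04). In 3d mutants it had 17.9, 23.4 and 15.5 CPM and in 20d mutants 0.906, 0.565 and 0.885 CPM. The 3d mutants were far above every other group, and the 20d genotypes overlapped.

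In set 2, CG8736 had 1.61, 7.05 and 8.39 CPM at 3d, 1.15, 0.949 and 1.54 CPM at 20d and 1.35, 0.880 and 1.14 CPM at 50d. Replicate 1 at 3d was only just above the highest 20d library, and the other 3d libraries were well above all older ones. The log2 fold change from 3d to 20d was -2.21 (SE 0.543, edgeR adjusted p = 0.012), and it was -2.64 without that replicate (edgeR adjusted p = 1.1e-05). Leaving out 20d replicate 1 or 20d replicate 2 instead took the adjusted p to 0.0564 or 0.0512, just above the threshold. From 20d to 50d the value was -0.13 (SE 0.561, edgeR adjusted p = 0.932).

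CG11413, of 1 exon and 142 amino acids, lies on chromosome 2R at 24536190-24536791 (BDGP6.54, plus strand). Its set 1 levels were 5.12, 5.06 and 6.92 CPM in 3d controls and 2.85, 2.37 and 2.65 CPM in 20d controls. The ages did not overlap, and the gene fell 2.17-fold, a log2 fold change of -1.12 (SE 0.185, edgeR adjusted p = 8.1e-04). The 3d mutants had 21.6, 24.5 and 16.5 CPM and the 20d mutants 1.55, 1.39 and 1.05 CPM. As for CG4000, the mutants held the highest levels of the set at 3d and the lowest at 20d.

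In set 2, CG11413 had 7.70, 11.2 and 9.91 CPM at 3d, 3.14, 2.91 and 3.62 CPM at 20d and 3.51, 2.80 and 3.38 CPM at 50d. The young libraries were all above the older ones, and the older ages lay in the same range. The fall from 3d to 20d was 2.97-fold, a log2 fold change of -1.57 (SE 0.166, edgeR adjusted p = 2.1e-05), and the value from 20d to 50d was 0.00 (SE 0.182, adjusted p = 1). Of the 602 bases of its exon, 448 are shared with CG4622 on the opposite strand. CG4622 itself had a mean level between 15.4 and 16.9 CPM in each of the 7 groups and no called change (edgeR adjusted p between 0.643 and 0.963 in the 4 age comparisons of controls), so the pattern of CG11413 was not present in the gene that overlaps it.

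CG14153 lies on chromosome 3L at 10643528-10644615 (BDGP6.54, plus strand), within the span of CG32066 on the other strand but without shared exonic bases, and has 2 exons and 237 codons. In set 1 it had 11.6, 9.62 and 8.91 CPM in 3d controls and 8.56, 6.09 and 5.38 CPM in 20d controls. The highest 20d library came close to the lowest 3d library, and the fall was 1.5-fold, a log2 fold change of -0.58 (SE 0.175, edgeR adjusted p = 0.0272). This call rests on single libraries: leaving out 3d replicate 1 or 2, or 20d replicate 2 or 3, gave an edgeR adjusted p between 0.0535 and 0.115. In mutants it had 15.1, 19.2 and 18.3 CPM at 3d and 1.42, 2.13 and 1.83 CPM at 20d. The largest departure from controls was therefore at 20d, where each mutant library was far below each control library.

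In set 2, CG14153 was steady within ages, with 17.3, 17.5 and 17.1 CPM at 3d, 6.69, 6.89 and 6.34 CPM at 20d and 6.14, 6.87 and 6.35 CPM at 50d. It fell 2.60-fold from 3d to 20d, a log2 fold change of -1.38 (SE 0.0871, edgeR adjusted p = 8.4e-07), and then stayed in the same range (-0.04, SE 0.0887, adjusted p = 0.845). The low libraries of CG4000, CG3713 and CG8736 were thus not low for this gene. CG32066, whose span holds CG14153, rose slightly from 3d to 20d in both sets (log2 fold change 0.20 with edgeR adjusted p = 0.0387 in set 1, and 0.15 with adjusted p = 0.0482 in set 2), the opposite direction.

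CG33639, the orphan receptor, lies on chromosome X at 18210812-18226076 (BDGP6.54, minus strand), with 4 transcripts of 7 or 8 exons and a longest product of 455 amino acids. Levels in set 1 were 62.4, 64.1 and 65.9 CPM in 3d controls and 54.5, 49.7 and 50.8 CPM in 20d controls. The ages did not overlap, and the fall was small at 1.24-fold, a log2 fold change of -0.31 (SE 0.0550, edgeR adjusted p = 0.00128). In mutants it had 160.4, 160.5 and 153 CPM at 3d and 73.2, 67.8 and 71.5 CPM at 20d. Mutants were above controls of the same age in every library at both ages, and the aged mutants were also above the young controls.

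In set 2, CG33639 had 63.6, 64.8 and 66.5 CPM at 3d, 37.9, 41.9 and 41.3 CPM at 20d and 35.1, 34.5 and 41.9 CPM at 50d. It fell 1.61-fold from 3d to 20d, a log2 fold change of -0.69 (SE 0.0763, edgeR adjusted p = 3.1e-05). The value from 20d to 50d was -0.12 (SE 0.0768, edgeR adjusted p = 0.4), with overlapping libraries.

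CG9394, the glycerophosphodiesterase, lies on chromosome 2R at 21118394-21120705 (BDGP6.54, plus strand), has 1 exon and encodes 679 amino acids. It lies in the span of ktub without shared exonic bases. In set 1 it had 542, 494 and 574 CPM in 3d controls and 522, 485 and 517 CPM in 20d controls. The ages overlapped, and the log2 fold change of -0.08 (SE 0.0590) did not pass the test (edgeR adjusted p = 0.365). In mutants it had 581.8, 559 and 567 CPM at 3d and 283, 289 and 278.5 CPM at 20d. Young mutants were inside or next to the range of young controls, and aged mutants were below every other library.

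In set 2, CG9394 went down at each step, with 545, 515 and 547 CPM at 3d, 428, 394 and 432 CPM at 20d and 319.97, 345 and 311 CPM at 50d. No 2 ages overlapped. It fell 1.28-fold from 3d to 20d (log2 fold change -0.36, SE 0.0677, edgeR adjusted p = 0.00127) and 1.29-fold from 20d to 50d (-0.36, SE 0.0677, adjusted p = 0.00683). The mean of the 20d mutants of set 1, 284 CPM, was below the 50d control mean of 325 CPM in set 2, 2 levels that come from separately run and separately scaled sets and cannot be tested against each other. ktub, whose span holds CG9394, also fell from 3d to 20d in set 2 (-0.32, edgeR adjusted p = 0.0358).

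CG31345, the EF-hand protein, lies on chromosome 3R at 12811145-12817029 (BDGP6.54, minus strand), with 5 exons and 213 codons. In set 1 it had 75.6, 69.98 and 83.9 CPM in 3d controls and 34.1, 36.4 and 38.6 CPM in 20d controls. It fell 2.10-fold with no overlap, a log2 fold change of -1.07 (SE 0.0805, edgeR adjusted p = 4.4e-06). In mutants it had 90.03, 88.6 and 95.6 CPM at 3d and 31.6, 26.7 and 28.1 CPM at 20d. Mutants were a little above controls at 3d and a little below them at 20d, without overlap at either age.

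In set 2, CG31345 had 72.2, 72.9 and 84.0 CPM at 3d, 24.1, 27.0 and 29.6 CPM at 20d and 18.7, 16.8 and 20.01 CPM at 50d. No 2 ages overlapped. It fell 2.84-fold from 3d to 20d (log2 fold change -1.50, SE 0.0929, edgeR adjusted p = 7.3e-07), fell again 1.46-fold from 20d to 50d (-0.54, SE 0.0941, adjusted p = 0.00508), and was 4.13-fold lower at 50d than at 3d (adjusted p = 2.9e-08). CG9394 and CG31345, the 2 genes with the highest levels, were the ones called lower in both intervals of set 2. Genes with low levels were measured less precisely. CG3713 had a larger change from 20d to 50d (-1.28, SE 0.515) on 4 to 31 counts per library and was not called.

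**Figure D2:**
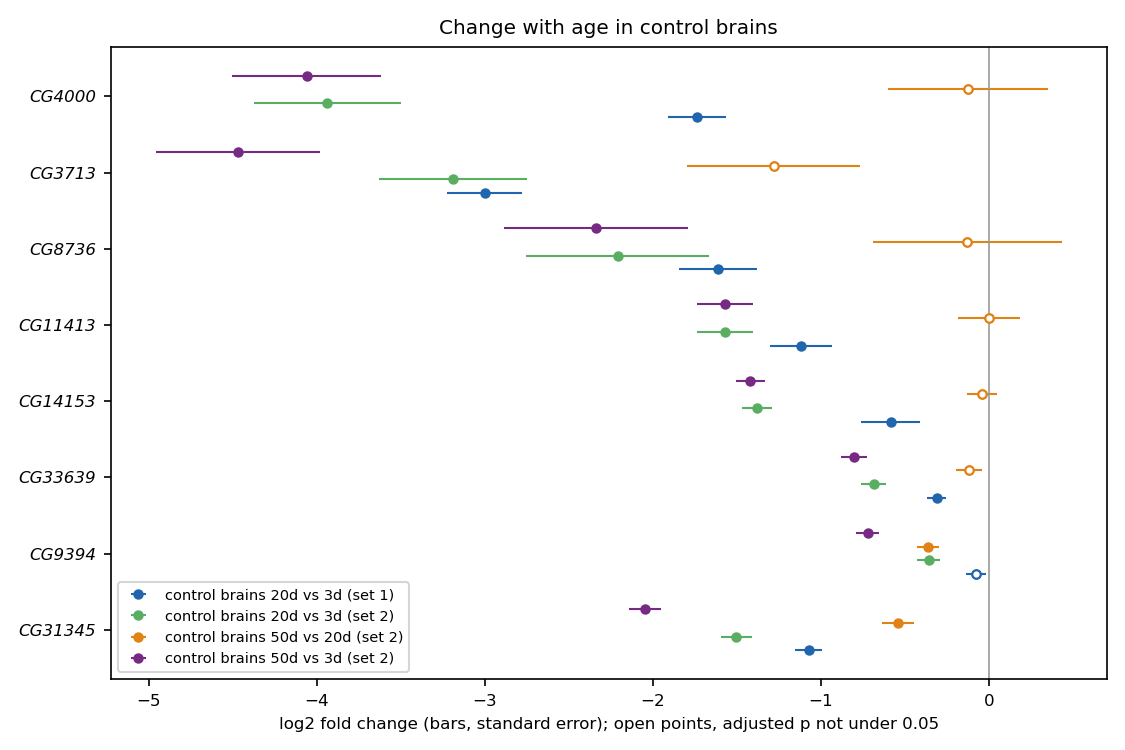
Log2 fold change of each gene with age in control brains, with 1 colour for each comparison of ages and bars of 1 standard error. Filled points passed the adjusted p threshold of 0.05 and open points did not. Most of the open points belong to 50d against 20d, where 6 genes were not called.

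Levels were also compared library by library, without a model. All 3 libraries at 20d were below all 3 at 3d for 7 of the 8 genes in set 1 and for 8 in set 2, whereas 19.4% and 25.8% of all genes tested showed this. For 50d below 20d it was 2 of 8 genes against 13.6% of all genes, and for 50d below 3d 8 of 8 against 28.7%. These counts include CG3713, which passed the filter only through 3d groups in both sets. Both sets of controls thus show the decline with age on libraries that the stated rule did not use, but the genes were chosen with earlier results of these data known. The shares of all genes that fell are also large. The adult groups of set 1 and set 2 each hold 3 libraries, so an exact permutation test on a single gene could not give a p below 0.1.

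**Figure D3:**
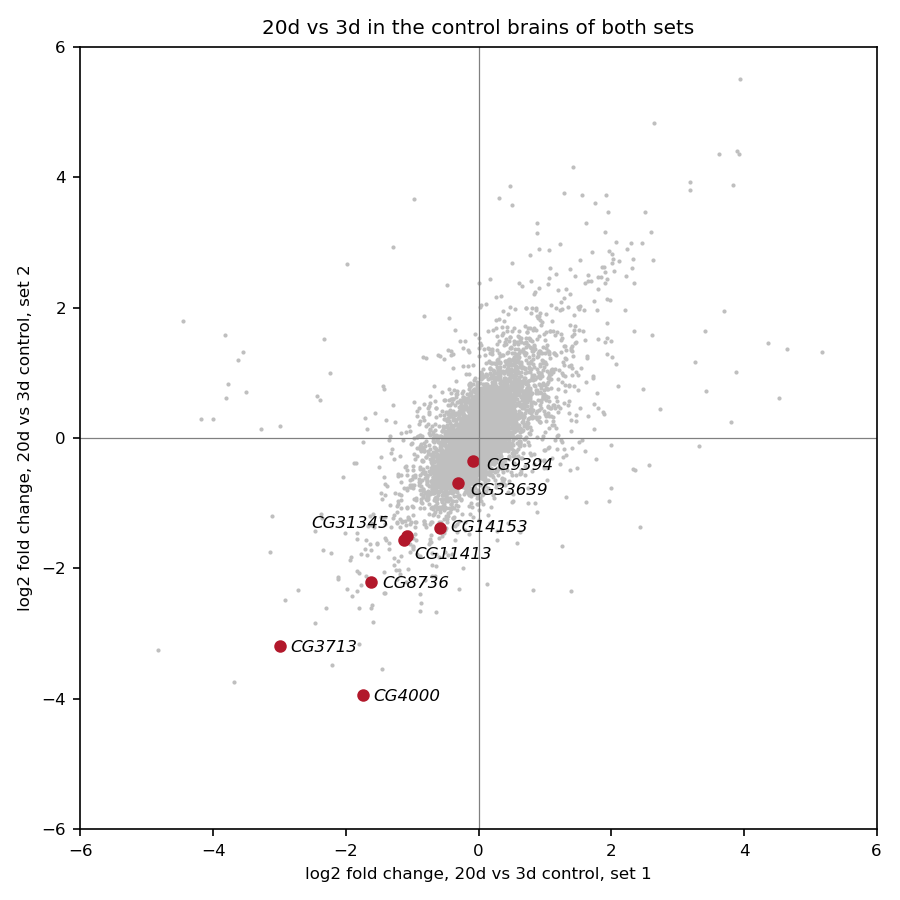
Log2 fold change from 3d to 20d in controls of set 1 (x axis) and set 2 (y axis) for genes tested in both sets (grey), with the 8 genes in red. All 8 lie in the lower left field, and CG4000 and CG3713 lie near its edge, while CG9394 lies near the centre of the grey points. The axes leave out 9 of 9896 genes.

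The levels in controls were also set side by side between the sets. At 3d the mean level in set 2 controls was 8.21 times that of set 1 controls for CG4000, 2.95 times for CG8736, 2.49 times for CG3713, 1.72 times for CG14153 and 1.68 times for CG11413. For CG33639, CG9394 and CG31345 the same ratio was 1.01, 0.999 and 0.998 at 3d, and at 20d it was 0.781, 0.823 and 0.739, without overlap. Only the ranges of CG8736 overlapped at 3d among the first 5 genes, through its low replicate in set 2. The sets were run and scaled separately, so a difference in level between them cannot be told apart from the experiment. The difference in log2 fold change between the sets passed a test for CG14153 (-0.79, edgeR adjusted p = 0.0442) and CG33639 (-0.37, adjusted p = 0.0372), where 3.04% of genes were called lower, and both calls were lost without most single libraries. The 3d controls of set 2, at 11.5 to 36.0 CPM of CG4000, covered the whole range of the 3d mutants of set 1, at 23.8 to 31.0 CPM, although they carry the control genotype. For CG14153 they lay inside the mutant range, at 17.1 to 17.5 against 15.1 to 19.2 CPM. For CG3713 (2.64 to 6.42 against 12.1 to 13.9 CPM), CG8736, CG11413, CG33639, CG9394 and CG31345 they were all below every 3d mutant.

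Replicate 1 of the 3d group in set 2 stood apart for CG4000, CG3713 and CG8736, where it was below 0.5 times both other libraries of its group. This was true of 211 of 10525 genes tested (2.00%) in that library and of between 0.643% and 1.66% of genes in each of the other 20 libraries. With this library left out all 8 genes remained called lower at 20d than at 3d. For CG4000 the difference between the sets in the log2 fold change was -2.19 (edgeR adjusted p = 0.0729) with all libraries and -2.55 (adjusted p = 2.6e-04) without this one.

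The values that follow compare mutant libraries and describe the choice of the genes. In mutants, 20d was lower than 3d by 67.5-fold for CG4000, 34.9-fold for CG3713, 24.1-fold for CG8736, 15.5-fold for CG11413 and 9.76-fold for CG14153. For the genes placed in a family it was lower by 3.17-fold for CG31345, 2.23-fold for CG33639 and 2.01-fold for CG9394. The difference was thus much larger for the 5 genes without an assigned role. All 3 of the 20d mutant libraries were below all 3 of the 3d mutant libraries for each of the 8 genes, as they were for 28.6% of all genes tested.

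The 8 genes are a selection and not the complete top of a ranking. Among 3172 genes with a CG symbol tested in set 1, ordered by the mutant log2 fold change from 3d to 20d, CG4000 was at place 2, CG3713 at 5, CG8736 at 9, CG11413 at 15 and CG14153 at 21. CG31345, CG33639 and CG9394 were at places 71, 136 and 160. Of 24 genes with a log2 fold change of -3 or lower 5 are in the selection, and 152 other CG genes had a decrease at least as large as that of CG9394. Around the value of CG9394 (-1.01 on the log2 scale), CG3270 was just inside with -1.01 and CG14434 with -1.0 and CG13022 with -0.996 were just outside.

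**Figure D4:**
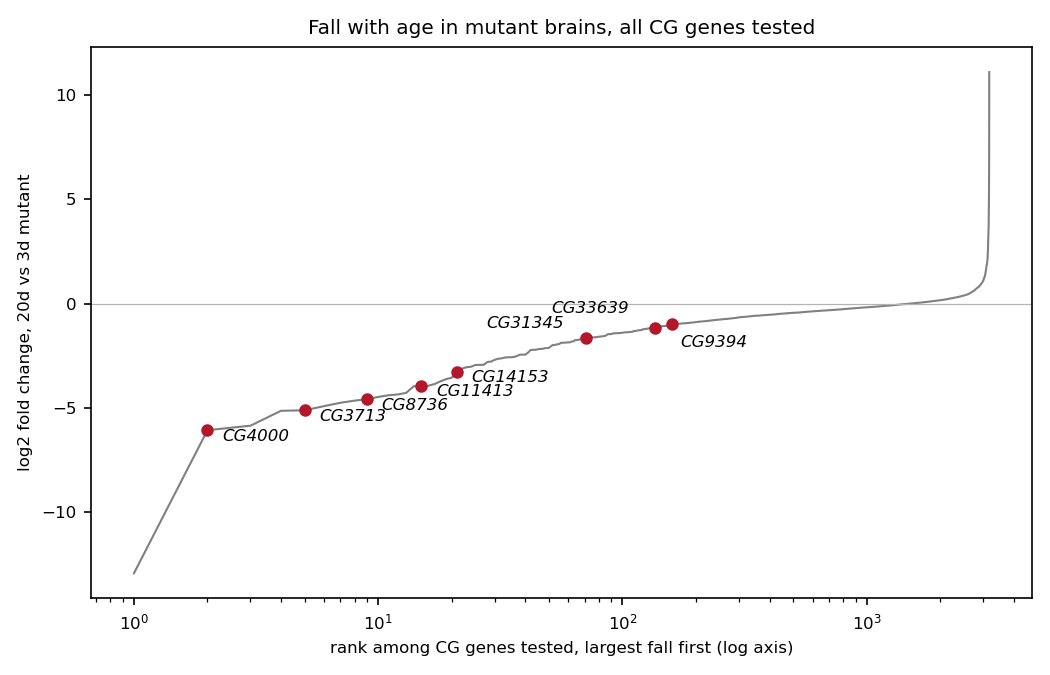
Log2 fold change from 3d to 20d in mutant brains for all 3172 CG genes tested, against rank (log axis, rank 1 has the largest decrease). Red points are the 8 genes, which run from rank 2 to rank 160 along the grey line of all CG genes, with many unselected genes between them.

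How young mutants differed from young controls separated the 8 genes into groups. At 3d the mutant level was 9.80-fold higher for CG8736, 8.88-fold for CG4000, 6.55-fold for CG3713, 3.66-fold for CG11413, 2.46-fold for CG33639 and 1.75-fold for CG14153. For CG31345 it was 1.20-fold and for CG9394 1.06-fold higher, a log2 difference of 0.09 (SE 0.0590) with overlapping libraries. In 7 of the 8 genes all mutant libraries were above all control libraries at 3d, which held for 24.7% of all genes tested. CG9394 was therefore not high in young mutant brains, and CG31345 only slightly so.

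At 20d the direction was mixed. Mutants were below controls without overlap for CG14153 (3.72-fold), CG4000 (2.28-fold), CG11413 (1.95-fold), CG9394 (1.79-fold) and CG31345 (1.26-fold), and above controls without overlap for CG3713 (1.5-fold) and CG33639 (1.37-fold). This is 5 genes lower and 2 higher, where 21.4% of all genes tested were lower in this way and 21.4% higher. CG8736 overlapped at 20d, with a ratio of 1.25. CG4000, CG11413, CG14153 and CG31345 thus crossed over, with mutants above controls at 3d and below them at 20d.

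The interaction, the log2 fold change with age in mutants minus that in controls, was negative for all 8 genes. It ran from -4.34 (SE 0.271) for CG4000 through -2.97 for CG8736, -2.83 for CG11413, -2.70 for CG14153 and -2.12 for CG3713 to -0.93 for CG9394, -0.85 for CG33639 and -0.59 (SE 0.113) for CG31345. CG3713 had the steepest decline of the 8 in set 1 controls but only the fifth place in this list, with 4 to 7 counts per library in its 20d controls.

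**Figure D5:**
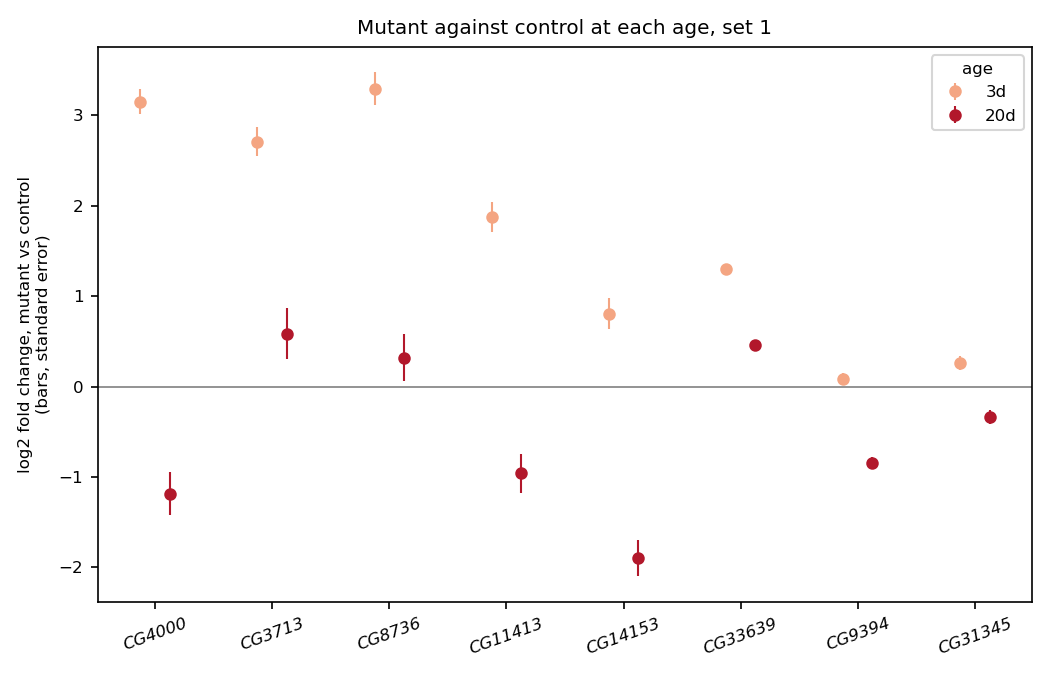
Log2 fold change of mutant against control brains of set 1 at 3d (light) and 20d (dark) for the 8 genes, with bars of 1 standard error. At 3d the points run from 0.09 for CG9394 to 3.29 for CG8736, and at 20d they run from -1.90 for CG14153 to 0.59 for CG3713.

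The levels of the 8 genes moved together to different degrees. Over the 12 libraries of set 1 the Pearson correlation of log2 CPM between 2 of the genes had a median of 0.876 over 28 pairs, with a highest value of 0.982 and a lowest of 0.267 for CG33639 and CG9394. These libraries include those that chose the genes, share 4 groups and are described without a test. Against the mean pattern of the 8, CG4000 had a correlation of 0.994 and CG11413 of 0.993, while CG33639 and CG9394 were the least alike at 0.806 and 0.764. In the latter pair, CG33639 kept a genotype difference at both ages and CG9394 showed one only in aged brains.

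Outside the selection, the 5 tested genes whose levels over these 12 libraries were most like that mean pattern were CG6330 (0.991), Irk2 (0.990), phtf (0.990), Gat (0.989) and Jupiter (0.987). Irk2 encodes an inwardly rectifying potassium channel, Gat the transporter that takes up GABA into glia, and Jupiter a microtubule-associated protein. In mean CPM, Gat had 577 in young controls and 854 in young mutants, and 399 and 341 in the same genotypes at 20d, the same order of groups as CG4000 with far smaller ratios. In controls Gat fell from 3d to 20d in set 1 (log2 fold change -0.53, edgeR adjusted p = 1.0e-04) and in set 2 (-1.05, adjusted p = 5.1e-06). Over all 21 libraries with each set centred, CG6330 and phtf again were among the 5 most alike, with SLC22A at 0.985 in first place.

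For each single gene the most alike other gene over the 12 libraries of set 1 was also taken. CG33639 was closest to Mdr65 (0.996), an ABC transporter of the glia that form the blood-brain barrier, whose mean level was 116 CPM in young controls and 261 in young mutants, and 88.1 and 119 in the same genotypes at 20d. As with the receptor, mutants had more Mdr65 than controls at both ages. CG8736 was closest to Nplp3 (0.983), a neuropeptide-like precursor, which had 27.1, 135, 9.06 and 8.39 CPM in the same order of groups and fell in controls of both sets (log2 fold change -1.58 with edgeR adjusted p = 8.3e-04, and -2.83 with 7.0e-04). Nplp3 also shared the higher 3d level in set 2, at 140 CPM.

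CG14153 was closest to CG13280 (0.967), which had 5.38, 7.30, 3.38 and 0.883 CPM in young controls, young mutants, aged controls and aged mutants of set 1. CG9394 was closest to DIP-theta (0.990), a cell-surface protein of the immunoglobulin superfamily, with 44.4, 46.9, 43.6 and 24.1 CPM in these groups, so both were low in aged mutants alone. Of the others, CG4000 was closest to Irk2 (0.991), CG3713 to ATPsynD (0.994), a subunit of the mitochondrial ATP synthase, CG11413 to AP-2alpha (0.990), a clathrin adaptor subunit, and CG31345 to Mlf (0.990). Over all 21 libraries with each set centred, CG3713, CG33639 and CG31345 had the same closest gene, and the other 5 had another, namely SLC22A for CG4000, CG7214 for CG8736, CG4000 for CG11413, Adgf-D for CG14153 and Psa for CG9394.

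The genes next to the members on the chromosome did not share the pattern as a rule, apart from those of CG4000. Of 8 adjacent genes that could be tested, 1 rose and 1 fell from 3d to 20d in set 1 and 0 rose and 2 fell in set 2. Of all genes tested, 11.3% were called higher and 13.3% lower in set 1, and 19.3% and 19.9% in set 2. Cpr92F, a cuticle protein gene that lies 3402 bases from CG4000, was one of those that fell in set 2 (log2 fold change -1.82, edgeR adjusted p = 0.0169), and its value in set 1 was -1.52 (adjusted p = 0.136) on 1 to 9 counts per library. Among the other adjacent genes, beat-Vc next to CG31345 fell in set 2 (-0.36, edgeR adjusted p = 0.00624), CG13585 next to CG11413 fell in set 1 (-0.25, adjusted p = 0.0327) and CG34396 next to CG9394 rose in set 1 (1.34, adjusted p = 0.0254).

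Of 4 other genes of the glycerophosphodiesterase family, 3 were tested, and from 3d to 20d none fell in either set while CG11619 rose in both (log2 fold change 0.46 with edgeR adjusted p = 0.00811 in set 1, and 0.39 with adjusted p = 0.0128 in set 2). From 3d to 50d CG18135 fell (-0.23, edgeR adjusted p = 0.0217) and the others were not called. A list of 16 genes of the young adult cuticle and of eclosion had 12 tested in set 1, of which 3 fell and 2 rose with a list median of -0.15, and 11 tested in set 2, of which 6 fell and 0 rose with a median of -0.48. In that list Cpr49Ae and Cpr62Bb, which encode cuticle proteins, fell in both sets, with log2 fold changes of -1.43 and -1.77 in set 1 and -2.05 and -1.78 in set 2 (edgeR adjusted p between 8.6e-07 and 6.1e-04). The gene e also fell in both sets, by less (-0.27 and -0.48). The genes that rose in set 1 were resilin (1.75, edgeR adjusted p = 0.0298) and rk (0.45, adjusted p = 0.0411), and neither was called in set 2. Of all genes tested for 20d against 3d, 13.3% were called lower and 11.3% higher in set 1, and 19.9% and 19.3% in set 2.

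Markers of other cell types were measured beside the 8 genes, since in a whole brain fewer cells of a type and less RNA per cell cannot be told apart. From 3d to 20d in controls, 3 of 5 tracheal markers fell in each set (btl, verm and Gasp) and none rose. Beside the marker counts here and below, 13.3% of all genes tested were called lower and 11.3% higher in set 1, and 19.9% and 19.3% in set 2. The summed tracheal level was 36.0 to 42.2 CPM in young controls and 55.6 to 66.1 in young mutants, and 25.4 to 29.4 and 24.3 to 29.7 in the same genotypes at 20d. In set 2 it was 45.4, 54.7 and 65.0 CPM in 3d replicates 1, 2 and 3 and 28.3 to 34.3 at 20d. It was lowest in the young library that was also lowest for CG4000, CG3713 and CG8736, as were the summed hemocyte level (1226, 1401 and 1489 CPM in replicates 1, 2 and 3), the neuronal level (6744, 6864 and 7306 CPM) and the fat body level (3219, 3833 and 3357 CPM). The tracheal sum was higher in young mutants than in young controls, as 7 of the 8 genes were, and overlapped between genotypes at 20d, where 7 of the 8 did not. Its part in the result was not tested.

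Of 6 hemocyte markers 2 fell in set 1 and 5 in set 2. Their sum was 815 to 1004 CPM in young controls and 1910.0 to 2120.0 in young mutants, and 549 to 630.0 and 1077 to 1159 in the same genotypes at 20d, mainly through the collagen genes Col4a1 and vkg. Of 7 neuronal markers 1 fell in set 1 and 7 fell in set 2, with sums of 5969 to 6475 CPM in 3d controls and 8717 to 9102 in 3d mutants. Of 7 glial markers 4 fell and 1 rose in set 1, and 3 fell and 2 rose in set 2. The summed glial level was 4432 to 5115 CPM in 3d controls and 5589 to 5767 in 3d mutants. At 20d it was 3486 to 3630 CPM in controls and 3013 to 3122 in mutants. The glial sum thus crossed over between genotypes without overlap, as CG4000, CG11413, CG14153 and CG31345 did. The single glial markers did not share this. Eaat1, Gs2 and Gat were higher in mutants at 3d and lower at 20d. By contrast, alrm (log2 fold change -0.47 and -1.42) and wrapper (-0.34 and -0.42) were lower at both ages. The marker moody was higher at both (0.65 and 0.62), and repo was level at 3d (0.00) and higher at 20d (0.30). The parts of neuronal, glial and hemocyte RNA in the levels of the 8 genes were not tested.

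Among the remaining markers, photoreceptor genes had 0 of 8 called in set 1 and 5 lower and 1 higher in set 2. Fat body genes had 2 lower and 2 higher of 9 tested in set 1 and 2 lower and 3 higher in set 2. Lsp1alpha and Fbp2 had no counts in 3d mutants, and Fbp2 had none in 20d controls of set 1 either. Muscle genes had 0 of 7 called in set 1 and 2 of 8 higher in set 2. The summed fat body level was 2423 to 3454 CPM in 3d controls and 1951 to 2664 in 3d mutants, which overlap.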

How the data were processed

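The members and the lists used here were chosen with earlier results of these data known. The authors used HISAT2 for alignment and HTSeq for counting, and deposited whole-number counts per gene for 21 libraries, without normalization. The strand setting of the counting is not given in the sources used here, and the releases named for genome and annotation differ. Columns were assigned to libraries by their names. The authors compared groups with DESeq2.

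From the deposited counts, TMM factors and CPM were obtained with edgeR 4.0.16 in R 4.3.3, which also fitted group means with the robust quasi-likelihood test, in 1 fit per set (9961 genes tested in set 1, 10525 in set 2, filterByExpr minimum count 10, Benjamini-Hochberg adjusted p under 0.05). A standard error is the log2 fold change divided by the square root of F. RPKM used exon lengths of Ensembl release 115 on BDGP6.54, and positions are those of that build, since the table has no coordinates. Correlations used log2 CPM with a prior count of 2.

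The genes named were the 8 members, adjacent and overlapping genes, 4 relatives of CG9394, the 5 genes most correlated with the members' mean and the most correlated gene of each member over set 1, and the host transcript of mir-34. Further genes were named from 9 lists (cuticle and eclosion, relatives of CG9394, neurons, glia, photoreceptors, fat body, muscle, hemocytes and trachea), and the ones called were picked out after their values were seen.

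The alternatives were RLE factors, DESeq2 1.42.0, no count filter, a minimum of 10 counts in every library, a fit of only the groups compared, a replicate block, and each library left out in turn. A difference between the sets in the change with age was added after the data were seen. Tested on simulated counts, edgeR recovered 93% of 2-fold and 96% of 4-fold changes for 20d against 3d controls of set 1, and 88% and 96% for those of set 2. The precision is set by 3 libraries a group and a biological coefficient of variation of 13% in set 1 and 12.9% in set 2. This is a common value, which the simulation used for every gene. In 3d controls of set 2, CG4000, CG3713 and CG8736 varied more, with means of 25.6, 5.01 and 5.68 CPM and SDs of 12.7, 2.06 and 3.59. The recovery therefore does not carry over to these genes there.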

Additional observations from a re-analysis of the deposited data

Results flagged for a closer look

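The change from 3d to 20d in controls was compared between the sets over the 12 control libraries of these ages, a comparison added after the data were seen. Of the 8 genes, CG14153 and CG33639 had a difference past the threshold, which is why they are listed here. The log2 fold change of set 2 minus that of set 1 was -0.79 for CG14153 (SE 0.205, edgeR adjusted p = 0.0442) and -0.37 for CG33639 (SE 0.0832, adjusted p = 0.0372), and 3.04% of 10221 genes tested were called lower in this way. CG14153 differed mainly at 3d (17.3 CPM in set 2 against 10.04 in set 1, means of 3 libraries) and CG33639 mainly at 20d (40.4 against 51.7 CPM). The call of CG14153 was lost when any of 11 of the 12 libraries was left out (edgeR adjusted p between 0.0622 and 0.106) and that of CG33639 when any of 9 was (between 0.0543 and 0.101). CG4000 had the largest difference, -2.19 (SE 0.614), which did not pass the test (edgeR adjusted p = 0.0729) with all libraries and did without 3d replicate 1 of set 2 (-2.55, adjusted p = 2.6e-04).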

How the results depend on the processing

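In the 4 age comparisons of controls, 379 values of the 8 genes were recomputed under alternatives, and 373 kept their side of the threshold. The other 6 kept their direction and were no longer past 0.05, namely CG14153 in set 1 without each of 4 libraries (edgeR adjusted p 0.0535 to 0.115) and CG8736 in set 2 without 20d replicate 1 (0.0564) or replicate 2 (0.0512). The sign varied only for CG8736 and CG11413 from 20d to 50d, where neither was called. With single libraries left out, their log2 fold changes ran from -0.287 to 0.091 and from -0.081 to 0.095. With at least 10 counts in every library, CG4000 and CG3713 dropped out of set 1 and CG3713 out of set 2, so that the median log2 fold change of the genes left was -2.47 for mutants at 20d against 3d (-3.62 with all 8), 1.05 for mutants against controls at 3d (1.59) and -1.81 for the interaction (-2.41). With each library left out in turn, all genes called numbered 1589 to 2530 for 20d against 3d in set 1 (2451 with all libraries) and 592 to 775 for 50d against 20d in set 2 (1023). For the difference between the sets, 0 to 2 of the 8 genes and 0 to 1242 of all genes (455 with all libraries) were called.

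Whether the replicate number pairs the libraries is not settled here, since 3 libraries a group are too few to decide it. In none of the 7 comparisons did all 3 same-numbered pairs of libraries have deviations correlated above 0.1. The 3 correlations ran from 0.0905 to 0.332 for 50d against 20d in set 2, from 0.0719 to 0.206 for mutants at 20d against 3d and from 0.0209 to 0.3 for mutants against controls at 20d, and at least 1 of them was negative in each of the other 4 comparisons. Every library correlated best with its own number only for 50d against 20d in set 2, which is a hint from the data and not from the design. With the replicate block, 7, 8, 2 and 8 of the 8 genes were called lower in the 4 age comparisons of controls, as without it, and all genes called numbered 2509, 4461, 1282 and 5557. The searches for protein relatives by sequence and for seed matches were not run, since no sequences were used here. Depth limits CG3713, CG4000 and CG8736 most, with 4 to 23 counts per library in 20d groups of set 1.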
